A study of Mus musculus with 6 samples.

Results

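The genes described here encode 44 proteins of the lysosome: hydrolases, their activators and cofactors, and proteins of the lysosomal membrane. They are a list of names drawn up with earlier results of these data known, matched by Ensembl identifier and mouse symbol. All 44 were found among the 27263 genes measured, and all 44 passed the filter on low values, a mean of at least 1 FPKM (fragments per exon length and library total) over the libraries. The study measured RNA in primary bone marrow stromal cells of C57BL/6 mice, taken from tibiae and femurs and sorted as Sca-1+ CD29+ CD45- CD11b-. After culture the cells received rGCA at 50 nM or PBS for 3 days, with 3 libraries per group. The labels do not spell GCA out; it is read here as grancalcin, a protein made by myeloid cells. They name no separate animals or cultures for the replicates, so a p-value reflects the spread of these samples alone, and that spread may be technical.

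The lysosome is the acidic compartment in which cells take apart proteins, glycans and lipids delivered by endocytosis, phagocytosis and autophagy. Most of its soluble hydrolases carry a mannose phosphate tag that sorts them to it, and many of their genes carry an E-box, the motif CACGTG, bound by TFEB and its relatives TFE3, MITF and TFEC. Macrophages, which digest what they engulf, are rich in these transcripts. Stromal cells also use them, to turn over matrix.

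The promoter stretches below show what some of these genes share apart from their expression, the E-box. Each holds the 160 bases before a RefSeq transcription start on GRCm38.p6, written 5′ to 3′ on the strand of the gene, with each CACGTG in capitals. The first 4 were taken only among genes that rose with GCA, by the longest of 3 motifs searched and then by fold change. So the stretches do not show whether the core goes with a rise. In the longer windows described below, 6 of 13 genes with CACGTG rose, as did 10 of 26 without it. Lamp1, with the most copies of the core, and Lipa, the gene that fell, were added after their values were seen.
Cln3, chr7:126583237-126583396 (- strand): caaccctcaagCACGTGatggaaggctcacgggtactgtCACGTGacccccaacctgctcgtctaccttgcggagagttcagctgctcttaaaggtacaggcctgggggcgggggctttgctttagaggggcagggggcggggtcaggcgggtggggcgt
Naglu, chr11:101069934-101070093 (+ strand): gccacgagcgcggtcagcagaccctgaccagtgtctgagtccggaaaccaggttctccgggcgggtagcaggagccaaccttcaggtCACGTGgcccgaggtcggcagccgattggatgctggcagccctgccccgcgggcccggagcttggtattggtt
Lgmn, chr12:102439093-102439252 (- strand): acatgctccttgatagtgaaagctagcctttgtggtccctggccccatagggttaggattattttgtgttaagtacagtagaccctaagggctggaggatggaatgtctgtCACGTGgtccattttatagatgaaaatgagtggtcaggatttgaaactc
Sgsh, chr11:119355511-119355670 (- strand): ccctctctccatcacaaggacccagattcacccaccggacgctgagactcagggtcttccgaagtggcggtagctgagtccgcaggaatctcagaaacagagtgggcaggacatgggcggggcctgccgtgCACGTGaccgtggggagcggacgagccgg
Lamp1, chr8:13159001-13159160 (+ strand): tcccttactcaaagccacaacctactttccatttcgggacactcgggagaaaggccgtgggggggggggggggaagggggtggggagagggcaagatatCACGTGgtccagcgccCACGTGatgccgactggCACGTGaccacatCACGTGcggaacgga
Lipa, chr19:34527475-34527634 (- strand): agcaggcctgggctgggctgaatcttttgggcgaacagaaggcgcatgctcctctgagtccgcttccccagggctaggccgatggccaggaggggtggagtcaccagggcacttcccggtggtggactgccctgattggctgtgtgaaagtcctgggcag

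With GCA, lysosomal transcripts rose more often than they fell. Of the 44 genes, 19 rose, 1 fell and 24 did not pass an adjusted p of 0.05 (limma on log2(FPKM + 1), Benjamini-Hochberg over 11984 genes). Among all genes tested 11.5% rose and 6.43% fell. The 19 rises were modest, from 1.18-fold for Ctsa to 1.61-fold for Atp13a2 by the ratio of group means. The fall was of Lipa, lysosomal acid lipase. The median log2 fold change of the 44 genes was 0.14, beside 0.0056 over all genes tested, and 36 of 44 had a positive value, beside 51.6% of all genes. In 27 of the genes every GCA library stood above every PBS library, beside 21.6% of all genes, and in Lipa and Tmem106b every GCA library stood below, beside 16.8%. The number of rises was 15 without PBS replicate 3, where 7.03% of all genes rose, and 21 without GCA replicate 2, where 10.99% did.

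Summed over the 44 genes, the level was 9334, 9398 and 9575 FPKM in PBS replicates 1 to 3. It was 12166, 10965 and 12050 FPKM in GCA replicates 1 to 3, so the groups did not overlap. These sums were 2.56% to 2.71% of all FPKM with PBS and 2.96% to 3.54% with GCA. Such shares depend in part on the top entry of the libraries, Gm23935, which alone held 6.55% to 12.3% of all FPKM with PBS. With GCA it held 10.1%, 12.2% and 6.41% in replicates 1 to 3. Psap, Ctsb and Ctsd, the most abundant of the genes per length, held 51.1% of the sum with PBS and 53.1% with GCA. The lowest of the 44 was Arsb, at 3.86 and 4.34 FPKM. GCA replicate 2 was the lowest GCA library in 29 of the 44 genes and in 12 of the 19 that rose. The plot of all 44 genes by library shows this order.

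**Figure D1:**
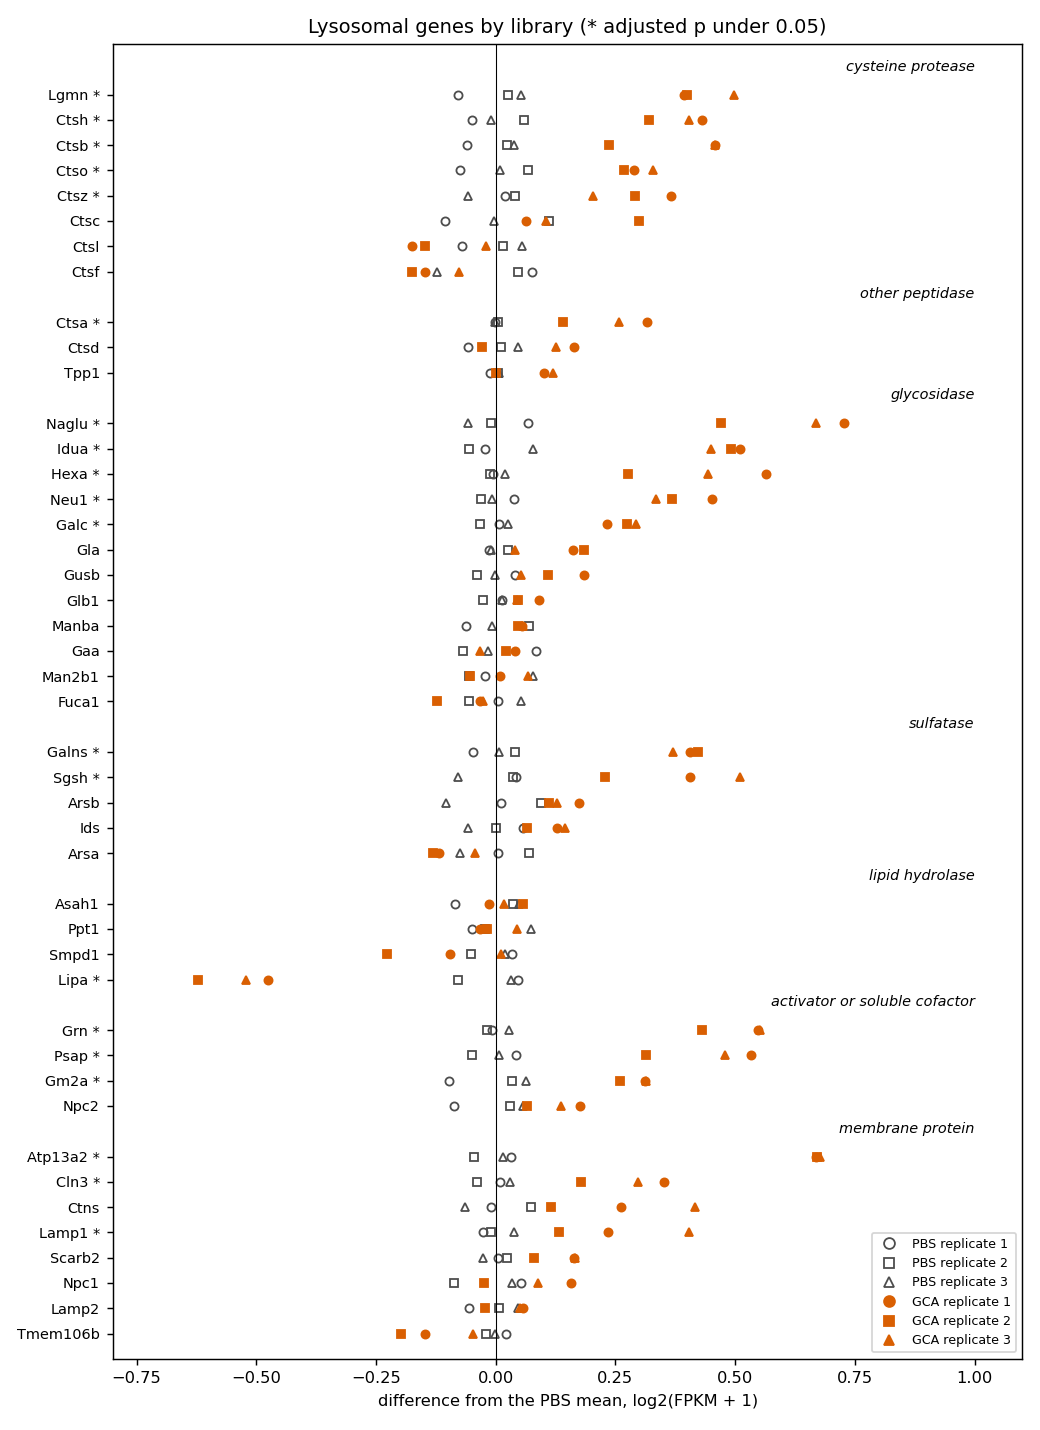
Difference of each library from the PBS mean on the log2(FPKM + 1) scale for the 44 lysosomal genes, grouped by role, with PBS libraries as open grey symbols, GCA libraries as filled orange symbols and an asterisk for an adjusted p under 0.05. The 19 genes that rose have all 3 GCA libraries to the right of all 3 PBS libraries, and Lipa has them to the left.

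Transcripts that mark macrophages were found throughout, in cells sorted as CD45- CD11b-. Of 20 macrophage markers 19 were tested, 9 rose (47.4%), 1 fell (Lyz2) and 9 did not pass, beside 11.5% and 6.43% of all genes that rose and fell. Ptprc, which encodes CD45, stood at 12.6 ± 0.59 FPKM with PBS and 13.4 ± 0.89 with GCA (SD, n = 3 each), and Itgam, which encodes CD11b, at 39.3 ± 3.35 and 30.5 ± 9.0. Without Lyz2, Cd68 and Laptm5, which encode lysosomal proteins, the list summed to 5521 to 6116 FPKM with PBS and 7172 to 7296 with GCA, with 7 of 16 genes higher. Without GCA replicate 2, 8 of the 19 markers rose and 4 fell, beside 10.99% and 6.43% of all genes in that fit. The falls were Lyz2, Itgam (adjusted p = 0.00185 by limma), Adgre1 (0.00436) and Cd14 (0.0165). With all libraries Itgam, Adgre1 and Cd14 did not pass (adjusted p = 0.244, 0.452 and 0.0852 by limma). Of 18 stromal markers tested 1 rose (5.56%), 6 fell (33.3%) and 11 did not pass, and the list summed to 3974 to 4284 FPKM with PBS and 3379 to 3633 with GCA. Of the 20 stromal markers listed, only 2, Lepr and Nt5e, were under 1 FPKM in every library. Ly6a, which encodes Sca-1, stood at 284 ± 41.4 FPKM with PBS and 324 ± 33.2 with GCA. Itgb1, which encodes CD29, stood at 348 ± 17.6 and 313 ± 21.1, and neither passed. Endothelial markers were under 1 FPKM in 9 of 10 genes, and no gene of any marker list measured was at 0 in every library. In bulk RNA a change in the number of cells of a type and a change in RNA per cell cannot be told apart. The part of these markers in the lysosomal changes was not tested.

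**Figure D2:**
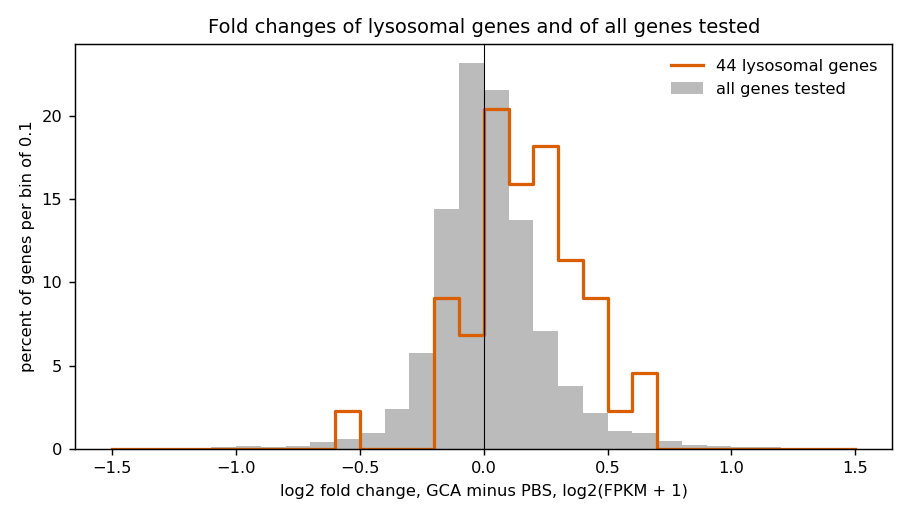
Distribution of log2 fold changes (GCA minus PBS, log2(FPKM + 1) scale) as percent of genes per bin of 0.1, for all 11984 genes tested (grey bars) and the 44 lysosomal genes (orange line), with 16 genes of the whole set outside the plotted range. The lysosomal genes have a median of 0.14 and the whole set one of 0.0056.

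Among the cysteine proteases, which cleave proteins inside the lysosome, 5 of 8 rose and 3 did not pass. Lgmn (ENSMUSG00000021190, chromosome 12, 102394084 to 102439813), the asparaginyl endopeptidase that also matures cathepsins, stood at 663.8, 714.0 and 727.7 FPKM with PBS and 921.7, 925.9 and 989.9 with GCA. Its 3 GCA libraries lay close together and well above the PBS libraries, the difference being 0.43 in log2 units (SE 0.056, limma adjusted p = 0.00221). Gene coordinates here and below are those of GENCODE M21 on GRCm38. Ctsb (ENSMUSG00000021939, chromosome 14, 63122462 to 63145923), cathepsin B, is the second most abundant of the 44 genes. It stood at 1461, 1548 and 1564 FPKM with PBS and 2094, 1794 and 2092 with GCA, GCA replicate 2 being nearest to the PBS libraries. The log2 difference of Ctsb was 0.38 (SE 0.071, limma adjusted p = 0.00948), but 0.26 (adjusted p = 0.112) after quantile normalization, which ended the call.

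Ctsh (ENSMUSG00000032359, chromosome 9, 90054152 to 90076089), an aminopeptidase, went from 55.0, 59.4 and 56.6 FPKM to 77.2, 71.3 and 75.7. The groups did not overlap, and its log2 difference was 0.38 (SE 0.051, limma adjusted p = 0.00238). Cathepsin O (Ctso) rose from 12.5 ± 0.67 to 15.5 ± 0.35 FPKM, and the carboxypeptidase cathepsin Z (Ctsz) from 568 ± 20.3 to 694 ± 39.5 (adjusted p = 0.0123, limma). Without PBS replicate 3 the adjusted p of Ctsz was 0.0514. Cathepsin C (Ctsc), the dipeptidyl peptidase that activates granule proteases, was at 78.6 ± 6.01 and 87.7 ± 7.93 FPKM and missed the threshold. So did cathepsin L (Ctsl), at 139 ± 6.17 and 129 ± 7.5, and cathepsin F (Ctsf), at 21.7 ± 1.65 and 19.6 ± 0.72. Some exon bases are shared with genes on the opposite strand in Arsb (32.3% with Gm26527), Ctsl (26.8% with Gm47123), Arsa (18.8% with C230037L18Rik), Ctsb (12.8% with Fdft1), Hexa (12.8% with Tmem202), Sgsh (21.6% with Card14), Ctsa (10.5% with Pltp) and Lamp1 (9.3% with Grtp1). On the same strand Ctsd shares 34.4% with Gm49369 and Ctsl 6.1% with the pseudogene Gm49230. How shared reads were assigned, and whether by strand, is not stated, so these levels are uncertain.

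Of the 3 other peptidases 1 rose. Ctsa, the carboxypeptidase that holds the sialidase Neu1 and the galactosidase Glb1 in a stable complex, went from 184 ± 0.42 to 217 ± 13.3 FPKM (log2 0.24, adjusted p = 0.0193 by limma). That call was lost without PBS replicate 2 (adjusted p = 0.063), PBS replicate 3 (0.0638), GCA replicate 1 (0.0706) or GCA replicate 3 (0.0601), and with no filter on low values (0.0618). Cathepsin D (Ctsd, ENSMUSG00000007891, chromosome 7, 142375911 to 142388038), the main aspartic protease of lysosomes, stood at 839.5, 881.4 and 903.6 FPKM with PBS and 978.8, 857.2 and 954.5 with GCA. GCA replicate 2 fell within the PBS range, and the gene did not pass (log2 0.09, SE 0.063, adjusted p = 0.379 by limma). Tpp1, which removes tripeptides, was at 99.7 ± 0.73 and 105 ± 4.65 FPKM and missed the threshold.

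The glycosidases, which trim sugars from glycans and glycolipids, had 5 rises among 12 genes. Naglu (ENSMUSG00000001751, chromosome 11, 101070012 to 101077672), which removes N-acetylglucosamine from heparan sulfate, stood at 35.3, 33.4 and 32.2 FPKM with PBS and 56.3, 46.9 and 54.0 with GCA. All GCA libraries were above all PBS libraries, and the log2 difference was 0.62 (SE 0.072, limma adjusted p = 0.00134). Idua (ENSMUSG00000033540, chromosome 5, 108660331 to 108684557), which removes iduronic acid from heparan and dermatan sulfate, went from 7.46, 7.27 and 8.07 FPKM to 11.2, 11.1 and 10.7. This gene is expressed at a low level, and its libraries agree closely within each group (log2 0.48, SE 0.054, adjusted p = 0.00124 by limma).

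Hexa (ENSMUSG00000025232, chromosome 9, 59539540 to 59565109), the alpha subunit of beta-hexosaminidase that acts on GM2 ganglioside, stood at 219.3, 218.5 and 223.2 FPKM with PBS and 326.1, 267.0 and 299.8 with GCA. The PBS libraries were tight and the GCA libraries spread, with GCA replicate 2 lowest (log2 0.43, SE 0.071, adjusted p = 0.00608 by limma). Neu1 (ENSMUSG00000007038, chromosome 17, 34931253 to 34935953), the lysosomal sialidase, went from 22.3, 21.2 and 21.6 FPKM to 30.0, 28.3 and 27.6. The groups of Neu1 were separated (log2 0.39, SE 0.049, adjusted p = 0.00205 by limma). Galc, which removes galactose from galactosylceramide, rose from 5.99 ± 0.15 to 7.41 ± 0.18 FPKM.

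The other 7 glycosidases did not pass. Glb1, the beta-galactosidase whose activity is used as a stain for senescent cells, was at 49.7 ± 0.81 and 51.9 ± 0.93 FPKM (log2 0.06, SE 0.042). Gaa, which breaks down glycogen, was at 45.0 ± 2.50 and 45.3 ± 1.20. The alpha-galactosidase Gla was at 41.4 ± 0.64 and 45.4 ± 2.45, and the beta-glucuronidase Gusb at 113 ± 3.19 and 123 ± 5.64. Of the enzymes that take mannose and fucose from glycoproteins, Manba was at 11.8 ± 0.59 and 12.2 ± 0.046 FPKM, Man2b1 at 65.6 ± 3.23 and 65.9 ± 2.79, and Fuca1 at 48.2 ± 1.86 and 46.1 ± 1.73.

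**Figure D3:**
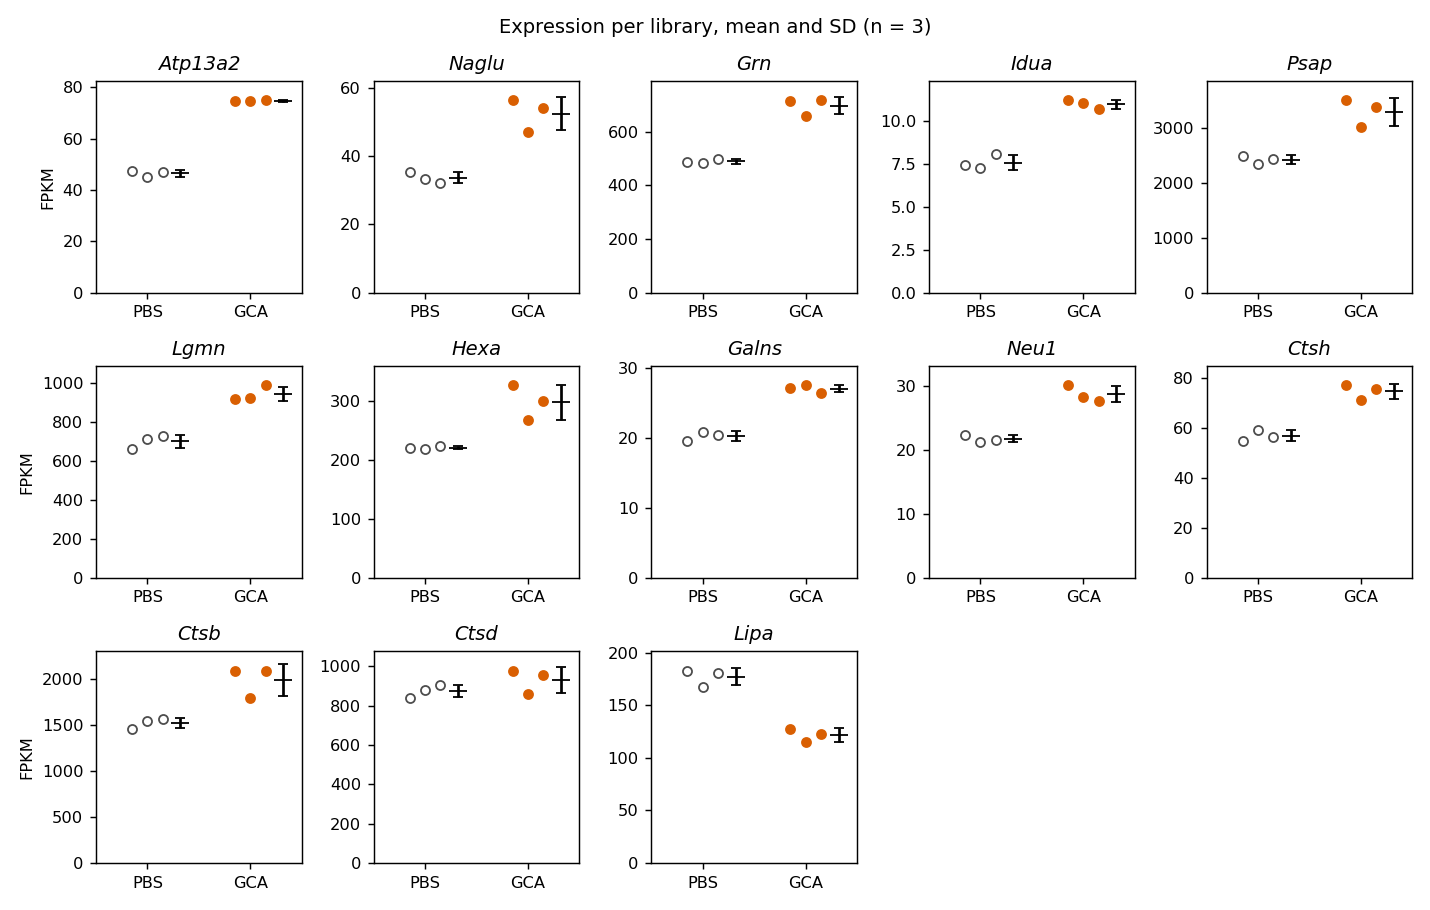
FPKM in each library (open grey circles for PBS, filled orange circles for GCA, replicates 1 to 3 from left to right) with the group mean and SD (n = 3) for the 10 largest rises by log2 fold change on the log2(FPKM + 1) scale, the 3 most abundant genes and Lipa. All panels start at 0, and only in Ctsd do the groups overlap.

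Of 5 sulfatases, which take sulfate groups from glycosaminoglycans and lipids, 2 rose. Galns (ENSMUSG00000015027, chromosome 8, 122578242 to 122611463), which acts on keratan sulfate, stood at 19.5, 20.9 and 20.3 FPKM with PBS and 27.1, 27.5 and 26.5 with GCA. Its replicates differed by little in either group (log2 0.40, SE 0.046, adjusted p = 0.00127 by limma). Sgsh, which removes sulfate from heparan sulfate, rose from 5.09 ± 0.28 to 6.96 ± 0.77 FPKM (log2 0.38, adjusted p = 0.0147 by limma). The adjusted p of Sgsh was 0.0558 without PBS replicate 3 and 0.0628 with no filter on low values. Ids, the iduronate sulfatase, at 18.7 ± 0.79 and 20.3 ± 0.62 FPKM, Arsb, which acts on dermatan sulfate, and Arsa, which acts on sulfatide, at 18.9 ± 0.99 and 17.6 ± 0.61, did not pass.

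Lipa (ENSMUSG00000024781, chromosome 19, 34492318 to 34527474), which hydrolyses cholesteryl esters and triglycerides taken up with lipoproteins, was the only one of the 44 genes to fall past the threshold. It stood at 182.9, 167.7 and 181.0 FPKM with PBS and 127.1, 114.7 and 123.0 with GCA. Every GCA library was below every PBS library, and the log2 difference was −0.54 (SE 0.057, limma adjusted p = 0.000967). The 3 other lipid hydrolases did not pass: acid ceramidase (Asah1) was at 180 ± 9.12 and 183 ± 4.58 FPKM, the palmitoyl thioesterase Ppt1 at 60.3 ± 2.78 and 60.2 ± 1.74, and acid sphingomyelinase (Smpd1) at 24.0 ± 0.79 and 22.3 ± 1.91. The cholesterol carriers that act after Lipa did not pass either, Npc1 in the membrane at 24.8 ± 1.33 and 26.2 ± 1.70 FPKM and the soluble Npc2 at 199 ± 10.4 and 217 ± 8.56.

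Activators and soluble cofactors rose in 3 of 4 genes, Npc2 being the other. Psap (ENSMUSG00000004207, chromosome 10, 60277627 to 60302597), the precursor of the saposins that present sphingolipids to their hydrolases, is the most abundant of the 44 genes. It stood at 2497, 2342 and 2434 FPKM with PBS and 3507, 3012 and 3377 with GCA. The groups of Psap did not overlap, and the log2 difference was 0.44 (SE 0.067, limma adjusted p = 0.00424). Grn (ENSMUSG00000034708, chromosome 11, 102430315 to 102437048), progranulin, which lysosomal proteases split into granulins, went from 486.7, 483.0 and 498.6 FPKM to 715.4, 659.9 and 717.9. Its PBS libraries were nearly level and every GCA library was above them (log2 0.51, SE 0.051, adjusted p = 0.00076 by limma). Gm2a, the activator that lifts GM2 ganglioside to hexosaminidase, rose from 42.7 ± 2.56 to 52.5 ± 1.15 FPKM.

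Of 8 membrane proteins 3 rose and 5 did not pass. Atp13a2 (ENSMUSG00000036622, chromosome 4, 140986873 to 141007330), an ATPase that exports polyamines from the lysosome, had the largest fold change of the 44 genes. It stood at 47.5, 45.0 and 47.0 FPKM with PBS and 74.5, 74.5 and 74.9 with GCA, the tightest GCA libraries among the genes given here by library. Its log2 difference was 0.67 (SE 0.043, limma adjusted p = 0.00025).

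Lamp1, a heavily glycosylated protein that lines the lysosomal membrane, went from 589 ± 13.7 to 706 ± 67.8 FPKM (log2 0.26, adjusted p = 0.0404 by limma). Of the 19 rises this one had the highest adjusted p. Its adjusted p was 0.103, 0.115 and 0.0825 with PBS replicates 1, 2 and 3 left out in turn, 0.0947 and 0.0903 with GCA replicates 1 and 3 left out, and 0.0685 under quantile normalization. It was 0.0612 without trend and robust moderation and 0.121 with no filter on low values. Lamp2, its relative, was at 97.4 ± 3.48 and 99.3 ± 3.08 FPKM and missed the threshold. Whether the Lamp1 and Lamp2 responses differ was not tested.

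Cln3, a membrane protein whose loss causes a juvenile storage disease of neurons, rose from 11.7 ± 0.31 to 14.4 ± 0.94 FPKM (adjusted p = 0.0148 by limma). The adjusted p of Cln3 was 0.0568 and 0.0523 on leaving out PBS replicate 2 and GCA replicate 1, and 0.0566 with no filter on low values, and 7.6% of its exon bases are shared with Apobr on the opposite strand, itself at a mean of 8.44 FPKM. Ctns, the cystine exporter, was at 14.4 ± 0.74 and 17.5 ± 1.94 FPKM with an adjusted p of 0.0541 (limma), and passed with a filter at a mean of 5 FPKM (0.0337), by limma-voom (0.0164) and without GCA replicate 2 (0.0153). Scarb2, a receptor that carries enzymes to the lysosome, was at 30.5 ± 0.57 and 33.6 ± 1.17 FPKM and passed only without GCA replicate 2 (adjusted p = 0.0477) among the fits run. Tmem106b was at 31.5 ± 0.47 and 28.7 ± 1.60 FPKM, lower in every GCA library, and passed (adjusted p = 0.0442) only after quantile normalization among the fits run.

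Other lysosomal genes were read from lists drawn up by name. The list of further hydrolases also holds other lysosomal proteins, such as Ifi30. Of its 36 genes tested, 16 rose (44.4%), 2 fell (5.56%) and 18 did not pass, beside 11.5% and 6.43% of all genes that rose and fell. The median of their log2 fold changes was 0.19. The mannosidase Man2b2 rose from 56.7 ± 2.56 to 77.5 ± 0.17 FPKM and the thiol reductase Ifi30 from 79.4 ± 9.17 to 136 ± 5.91. Creg1 fell from 163 ± 2.88 to 109 ± 0.84 FPKM. Lyz2, the macrophage lysozyme, went from 13518 ± 814 to 8879 ± 806, with a log2 fold change of −0.61 (adjusted p = 0.00241 by limma) that was −0.11 (adjusted p = 0.438) after quantile normalization. The 16 rises became 9 without PBS replicate 3 or without GCA replicate 1, and 10 with no filter on low values, where 7.03%, 7.80% and 2.70% of all genes rose.

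In the list of further membrane proteins 13 of 44 rose (29.5%), 2 fell (4.55%) and 29 did not pass, beside 11.5% and 6.43% of all genes. The median of their log2 fold changes was 0.14. The amino acid exporter Slc36a1 rose from 18.1 ± 0.54 to 25.4 ± 0.97 FPKM, Laptm5 from 227 ± 2.19 to 300 ± 11.1 and Cd68 from 614 ± 13.4 to 944 ± 105. The heme carrier Slc48a1 fell from 135 ± 6.54 to 106 ± 6.01 FPKM. Slc11a1, the metal exporter of phagosomes, went from 115 ± 5.30 to 84.5 ± 13.5 FPKM, with adjusted p-values of 0.0931, 0.0762 and 0.0679 on leaving out PBS replicates 1, 2 and 3 in turn, 0.0875 and 0.0505 without GCA replicates 1 and 3, and 0.0916 with no filter on low values. The 13 rises became 8 without PBS replicate 2 or without PBS replicate 3, and 6 with no filter on low values, where 7.44%, 7.03% and 2.70% of all genes rose. Laptm5 and Cd68 are also in the macrophage list.

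The genes that tag and sort lysosomal enzymes moved both ways. Of 30 tested, 5 rose, 3 fell and 22 did not pass, shares of 16.7% and 10.0%, nearer to the 11.5% and 6.43% of all genes. The adaptor subunit Ap1b1 rose from 44.6 ± 2.36 to 64.6 ± 0.73 FPKM, Nagpa, which uncovers the mannose phosphate tag, from 23.3 ± 0.47 to 30.5 ± 0.79, and the adaptor Gga1 from 28.4 ± 1.52 to 34.8 ± 0.27. Igf2r, the larger of the mannose phosphate receptors, went from 27.1 ± 2.35 to 22.0 ± 1.07 FPKM, the endocytic receptor Lrp1 from 124 ± 5.74 to 102 ± 3.54 and the cargo receptor Lman1 from 28.5 ± 1.20 to 24.8 ± 1.23. M6pr, the smaller receptor, did not pass, at 61.6 ± 2.84 and 64.5 ± 2.36 FPKM. The call of Igf2r was lost without PBS replicates 1 or 2 or GCA replicates 1 or 3 (adjusted p = 0.0623, 0.07, 0.0669 and 0.0745) and with no filter on low values (0.0925). The call of Lman1 was lost without any library other than GCA replicate 2 (adjusted p = 0.0729 to 0.137), after rescaling to equal summed FPKM (0.0514), without trend and robust moderation (0.0663) and with no filter on low values (0.121). The 3 falls became 1 without PBS replicate 1, PBS replicate 2, GCA replicate 1 or GCA replicate 3, and 1 with no filter on low values. In those fits 4.21%, 3.47%, 3.67%, 4.93% and 1.25% of all genes fell.

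The factors that bind the E-box did not move together. Tfeb was at 2.47 ± 0.087 FPKM with PBS and 2.52 ± 0.30 with GCA, and Tfe3 at 9.19 ± 0.22 and 9.50 ± 0.47, and neither passed. Mitf fell from 7.29 ± 0.26 to 5.53 ± 0.15 FPKM (log2 −0.34, adjusted p = 0.0043 by limma). Tfec, the member restricted largely to macrophages, rose from 8.30 ± 0.60 to 11.5 ± 0.11 (log2 0.43, adjusted p = 0.00255 by limma). These are transcript levels, and the activity of these factors is set largely by their entry into the nucleus, which was not measured. In the list of 18 such factors and regulators 3 rose, 2 fell and 13 did not pass, shares of 16.7% and 11.1% beside 11.5% and 6.43% of all genes. Rragd, a Rag GTPase that anchors these factors at the lysosome, rose from 4.25 ± 0.30 to 6.94 ± 1.25 FPKM, with an adjusted p of 0.013 that was 0.0515 without PBS replicate 2 and 0.0581 with no filter on low values. Mcoln1, the lysosomal calcium channel, rose from 9.17 ± 0.15 to 10.8 ± 0.43, and its adjusted p was 0.0704, 0.0616 and 0.0724 when PBS replicate 2, PBS replicate 3 or GCA replicate 1 was left out and 0.0586 with no filter on low values. The kinase Map4k3 fell from 16.7 ± 0.067 to 13.4 ± 0.78 FPKM. The 3 rises became 1 without PBS replicate 2 and 1 with no filter on low values, where 7.44% and 2.70% of all genes rose.

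Inhibitors of cathepsins were tested in 9 genes and 0 passed by limma on log2 values, beside 11.5% and 6.43% of all genes that rose and fell. A list of 9 genes is too short to be told apart from those shares. Among the 9, 1 was higher at an unadjusted p under 0.05 (limma) and 1 was higher by limma-voom. Both are Cst7, cystatin F, a cystatin of immune cells, at 0.86 ± 0.17 FPKM with PBS and 2.31 ± 1.09 with GCA. Every GCA library of Cst7 was above every PBS library, and its adjusted p was 0.0786 by limma, 0.043 by limma-voom and 0.00407 without GCA replicate 3. The inhibitors given here were picked after their values were seen. Cystatin C (Cst3), the main secreted inhibitor, was at 551 ± 39.1 and 600 ± 47.4 FPKM, and cystatin B (Cstb), its cytosolic relative, at 377 ± 8.68 and 370 ± 21.5.

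The E-box core stood in the promoter windows of 13 of these genes. Windows of 250 bases before to 50 after a RefSeq start on GRCm38.p6 were read for 39 of the 44 genes and for 27025 genes in all, counting a gene once if any of its windows held the motif on either strand. The 27025 genes were not limited to those that passed the filter on low values, as the 39 did, so the sets are unlike. CACGTG was found in 13 of 39 genes (33.3%), against 8.09% of all genes. TCACGTG, which contains it, was found in 11 (28.2%) against 4.29%, and the consensus of the CLEAR element described in lysosomal promoters, CACGTG with GT before it and AC after it, in 1 (2.56%) against 0.37%. That gene is Cln3, whose core in this match begins at position −121 from the start used here. In Cln3, Lgmn and Ctsa the cores were found only in window 2 of those read, at another RefSeq start than that of window 1. The starts used for Cln3 and Lgmn lie inside their GENCODE M21 genes, which end at 126585817 and 102439813 on the - strand. Rises were found in 6 of the 13 genes with CACGTG (Ctsa, Lgmn, Naglu, Sgsh, Lamp1 and Cln3) and in 10 of the 26 without it, and the difference was not tested. Lamp1 holds 4 copies, beginning at positions −61, −45, −28 and −15, as the stretch printed above shows, and Naglu and Lgmn hold 1 each. Atp13a2, Grn and Lipa hold none in these windows. A match of letters is a description of the sequence and does not show that a factor binds there.

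**Figure D4:**
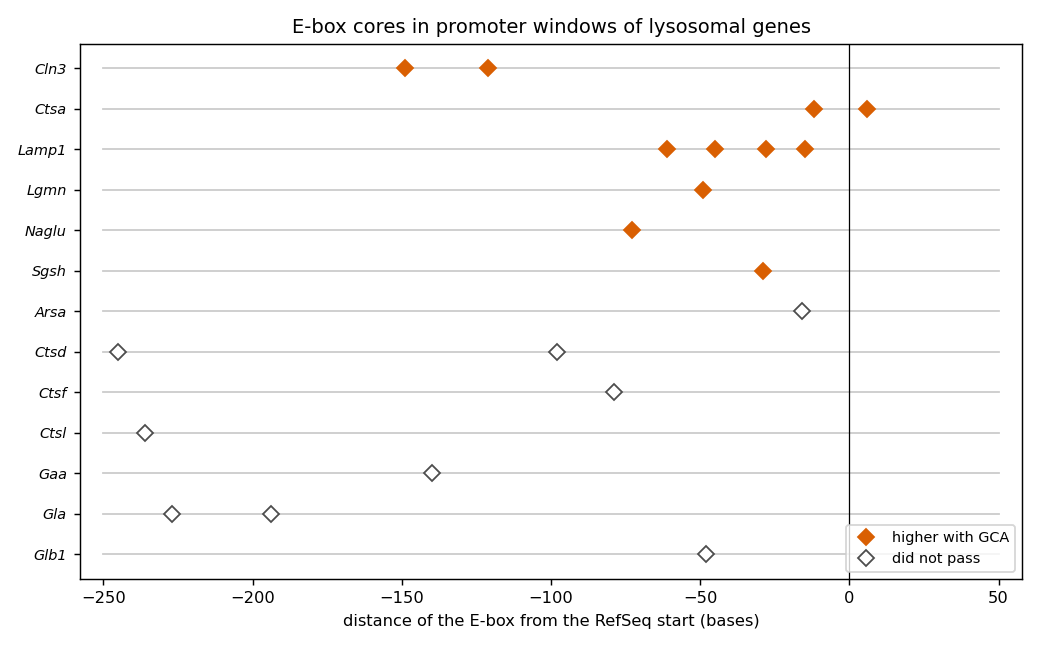
Position of each CACGTG relative to a RefSeq start (0, black line) in windows of 250 bases before to 50 after it, for the 13 lysosomal genes that hold one. Filled orange diamonds mark the 6 genes that rose with GCA and open diamonds the 7 that did not pass.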

How the data were processed

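RNA was sequenced as 150 bp paired-end reads from 3 PBS and 3 GCA libraries. The authors deposited 1 value per Ensembl gene and library, taken here as FPKM from the values, since per the file headers and labels no unit is named. Per the submitters' processing notes, mm8, mm9 and Bowtie 0.12.2 are named; how reads were counted, and against which annotation, is not stated. Multiplied by exon-union length in GENCODE M21 (GRCm38), 90.8% to 91.0% of values above 0 gave whole fragments (within 0.02), with library totals of 17543509 to 18645932. These totals were estimated as those that make the values whole and are not reported depths. In each library the recovered fragments of all genes summed to more than its total, 19614394 against 18229435 in PBS replicate 1. The reason was not tested. By these totals depth differed little, and each of the 44 genes had at least 375 recovered fragments in every library. Ctsf, Lipa and Npc1 did not give whole numbers in every library, so the length behind their level may be another. A different length alone would not touch ratios between libraries. Whether length or the way reads were assigned lies behind it was not tested. Of the genes listed, 27204 matched GENCODE M21 and 59 did not. Because the build of the alignment is open, coordinates were attached by identifier.

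In R 4.3.3, limma 3.58.1 was run on log2(FPKM + 1) with trend and robust moderation for 11984 genes, those averaging 1 FPKM or more, two-sided, with treatment as the only term and Benjamini-Hochberg adjustment over all of them. Fold changes on this scale understate those of low genes. It was tested on simulated data with known changes. The 44 genes and all lists were chosen with earlier results of these data known, so counts are set beside those of all genes, with no test over a list. Genes given by library are the 10 largest rises by log2 fold change on this scale, all falls past the threshold and the 3 most abundant; of each list, up to 3 per direction with the smallest p, and the factors Tfeb, Tfe3, Mitf and Tfec whatever their test. A gene that this rule names is not reported here. Promoters are from RefSeq tables on GRCm38.p6, found for 39 of 44 genes; Ctsb, Ctsh, Galns, Asah1 and Npc1 had none there. Alternatives were the replicate number as a block, 3 other scalings, 2 other filters, 2 pseudocounts, plain moderation, a threshold of 0.01, leaving out each library and, chosen after seeing the data, limma-voom on the recovered fragments. Python 3.11.15, pandas 2.3.3 and matplotlib 3.10.9 were used.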

Additional observations from a re-analysis of the deposited data

How the results depend on the processing

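Of the 19 genes that rose, 13 kept their call in each of the 16 alternative fits, as did Lipa; the 6 others are Ctsa, Ctsb, Ctsz, Sgsh, Lamp1 and Cln3, with values given above. Of the 24 that did not pass, 21 did so in every fit in which they were tested, the others being Ctns, Scarb2 and Tmem106b. No called gene changed sign. The number of rises was 15 to 21 on leaving out 1 library, 15 to 20 in the other fits and 14 at a threshold of 0.01, and that of falls 1, except 2 after quantile normalization. The median log2 fold change was 0.118 after quantile normalization, 0.124 after median centring, 0.149 and 0.145 with pseudocounts of 0.1 and 0.5, 0.149 by limma-voom and 0.121 to 0.166 on leaving out 1 library. Over all genes 2151 passed, 1075 with no filter on low values, 837 at a threshold of 0.01 and 1232 to 2088 on leaving out 1 library. Of those calls 64.2% were rises, and 53.8% were after quantile normalization. In the 5 pathway lists together 45 genes passed, 27 with no filter, 25 at a threshold of 0.01 and 30 to 51 on leaving out 1 library. The labels do not say whether same-numbered libraries share a source: their deviations from the group means correlated at 0.082, 0.029 and 0.068 for numbers 1 to 3, each library correlating best with its own number. With the replicate number as a block 19 genes rose and 1 fell, 2094 of all genes passed and 45 of the pathway lists did. The cause of these differences was not tested. Precision is limited by the 3 libraries per group and by depth, and the shares of each were not compared.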
